A study of Mus musculus with 2 samples.

Results

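The genes described here are the 9 that switch on the light response of a rod: Gnat1, Gnb1 and Gngt1, the α, β and γ subunits of rod transducin; Pde6a, Pde6b and Pde6g, the catalytic subunits and the inhibitory subunit of the rod phosphodiesterase; Cnga1 and Cngb1, the subunits of the cyclic nucleotide-gated channel; and Slc24a1, the sodium, calcium and potassium exchanger of the outer segment. They were chosen by name and function, are 9 of the 32285 genes counted, and all 9 were found in the files. Their spliced, unspliced and ambiguous molecules were followed apart, in rods and in free RNA, in a control retina library and a light damage library.

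In darkness the channel of the outer segment is held open by cyclic GMP. In light the transducin α subunit exchanges GDP for GTP and takes the inhibitory γ subunit off the phosphodiesterase, cyclic GMP is cleaved and the channel closes. A transcript that still holds an intron is mostly in the nucleus and recently made, whereas a spliced transcript is mostly in the cytoplasm, so the 2 kinds of molecule of a gene can change apart.

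Both libraries came from whole dissociated retina of mice labelled WT, whose Tgfbr2 gene was floxed on both alleles with no Cre present, of either sex, on a Balb-C/CD1 background, homozygous for the leucine variant of Rpe65 and 6 to 9 weeks old. The control mice were dark-adapted for 18 h. The light damage mice had the same 18 h of darkness, then 5000 lux of white light for 30 min and 6 h of recovery in dim light. Each library held a pool of 3 to 5 mice, and dead cells were removed with beads before loading. There was 1 library per condition, so the difference between light damage and control has no replicate check and no p-value is given. Light, the time since darkness, the pool of mice and the library cannot be told apart. Intervals below are 95% and cover counting error only.

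Each library was read as unique molecular identifiers (UMIs), each counting 1 captured molecule. The control library held 30605284 UMIs and the light damage library 54413601. After droplet filters, 3272 control and 5078 light damage droplets were rods by markers other than the 9 genes, and 7 kept barcodes were shared by the libraries. The rods were split on the share of unspliced UMIs among all their UMIs. Low rods, under 15% unspliced, numbered 2318 in control and 1874 in light damage, with median depths of 2749 and 3105 UMIs. High rods, at least 40% unspliced, numbered 615 and 2796, with median depths of 4172 and 5807.5 UMIs. The libraries filled different clusters of high rods: the cluster led by Xist and Tsix held 640 control and 120 light damage droplets, and the clusters led by Gm48237 and by Jun and Fos held 61 and 11 control and 1615 and 1425 light damage droplets. Rods between the limits numbered 339 and 408. A further cluster of low rods, led by Gsto1, Slit2 and Prss22 and with 467 control and 138 light damage droplets, had a score of -0.11 for bipolar markers and 0.51 for rod markers. Levels are given as UMIs of a kind per 1000000 UMIs of all kinds in the group (CPM). The summed level of the rod markers was 91905 CPM in control and 85440 in light damage in low rods, and 22066 and 21132 in high rods.

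The unspliced class rests on introns, and the members differ in how much intron they have (GENCODE vM21, GRCm38). Gnb1 lies on chromosome 4 from 155491361 to 155559269 with 63641 bp covered by introns alone, Cngb1 on chromosome 8 from 95239045 to 95306585 with 58186 bp, and Pde6b on chromosome 5 from 108388391 to 108432397 with 38981 bp. Gngt1, on chromosome 6 from 3993792 to 3997436, has only 130 bp outside annotated exons, and its unspliced UMIs numbered 71 or fewer in every group. Pde6a on chromosome 18 has 64922 bp of intron, Cnga1 34253 bp, Slc24a1 23534 bp, Pde6g 3579 bp and Gnat1 2210 bp. No other counted gene overlaps any of the 9 on either strand. Levels are therefore compared between groups of droplets, not between genes.

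The stretch before the transcription start is shown for 3 members whose unspliced UMIs turned out lower in light-damaged high rods. They are Gnb1 and Cngb1, which fell most, and Pde6b, whose unspliced and spliced ratios differed most in the pooled high rods. Each line gives the 250 bases upstream of the RefSeq start, 5′ to 3′ on the gene's strand (RefSeq table, GRCm38.p6). Capitals mark TAATCC, the core recognised by the photoreceptor factor CRX, and TGCTGA, a half-site of the rod factor NRL, searched on both strands.

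Gnb1, chr4:155491111-155491360, plus strand: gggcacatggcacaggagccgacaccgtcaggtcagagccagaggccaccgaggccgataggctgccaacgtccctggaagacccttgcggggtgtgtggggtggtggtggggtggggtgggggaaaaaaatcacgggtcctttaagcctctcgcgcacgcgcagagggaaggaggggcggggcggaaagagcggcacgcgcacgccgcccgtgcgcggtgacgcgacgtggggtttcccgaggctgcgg

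Cngb1, chr8:95306586-95306835, minus strand: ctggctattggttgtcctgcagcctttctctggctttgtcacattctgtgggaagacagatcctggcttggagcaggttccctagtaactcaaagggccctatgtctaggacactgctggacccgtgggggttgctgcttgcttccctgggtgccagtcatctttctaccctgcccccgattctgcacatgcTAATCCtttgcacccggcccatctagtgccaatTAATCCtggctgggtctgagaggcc

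Pde6b, chr5:108388123-108388372, plus strand: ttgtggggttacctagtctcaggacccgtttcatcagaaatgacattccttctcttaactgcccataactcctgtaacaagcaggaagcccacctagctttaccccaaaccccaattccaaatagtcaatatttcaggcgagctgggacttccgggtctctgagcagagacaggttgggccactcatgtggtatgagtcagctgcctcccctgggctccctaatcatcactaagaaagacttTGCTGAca

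Of the 9 members, 6 had a window in the table, and Gnat1, Pde6a and Pde6g had none. TAATCC or its reverse stood in 3 of the 6 windows (Gngt1, Cnga1 and Cngb1), and in 6.25% of all 32851 windows of this length. Cngb1 had it at positions -58 to -53 and again at -25 to -20 relative to the start. TGCTGA stood in the Pde6b window, at -8 to -3, and in 16.1% of all windows. The Gnb1 window, of a gene used in many cell types, held neither motif. A match describes the letters of the window and not a bound site.

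Together the spliced UMIs of the 9 members made up 6.92% of all UMIs of control low rods and 5.67% of those of light-damaged low rods. In low rods the spliced transcripts of most members were close to their control level, and those of the small subunits Gngt1 and Pde6g were lower. Gnat1, the GTP-binding subunit of transducin, had 10686 spliced CPM in control and 11072 in light damage, a log2 ratio of 0.05 (0.04 to 0.07). Gnb1, the β subunit, had 10622 and 9246, with a log2 ratio of -0.20 (-0.22 to -0.19). Gngt1, the γ subunit that anchors the complex to the membrane, had 23179 and 16353, with a log2 ratio of -0.50 (-0.51 to -0.49). The subunits of transducin thus differed among themselves, with the α subunit level and the γ subunit lower.

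The phosphodiesterase showed the same contrast between large and small subunits. Pde6a, a catalytic subunit, had 1829 and 1678 spliced CPM in control and light-damaged low rods, a log2 ratio of -0.12 (-0.16 to -0.09). Pde6b, its catalytic partner, had 2461 and 2687, a log2 ratio of 0.13 (0.10 to 0.16). Pde6g, which blocks both catalytic subunits in darkness, had 13216 and 8273, a log2 ratio of -0.68 (-0.69 to -0.66). Per 10000 UMIs of a rod, the interquartile range of spliced Pde6g was 107 to 163 UMIs in control and 63.5 to 103 in light damage, so the lower level was spread over the rods.

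The channel and the exchanger moved little. Cnga1, the channel subunit that forms the pore, had 3241 and 2991 spliced CPM in low rods, and a log2 ratio of -0.12 (-0.14 to -0.09). Cngb1, the modulatory channel subunit, had 1026 and 1046, with a log2 ratio of 0.03 (-0.02 to 0.07). Slc24a1, which carries calcium out of the outer segment, had 2975 and 3383, with a log2 ratio of 0.19 (0.16 to 0.21). A gene was called when its level differed at least 1.5-fold and it had at least 50 UMIs over both libraries. By that rule 1 of the 9 members was lower, Pde6g, beside 4.67% of the 8739 genes tested, and 0 were higher, beside 14.6%. The median gene had a log2 ratio of 0.16, and 8 of the 9 members lay below it, with Slc24a1 just above.

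**Figure D1:**
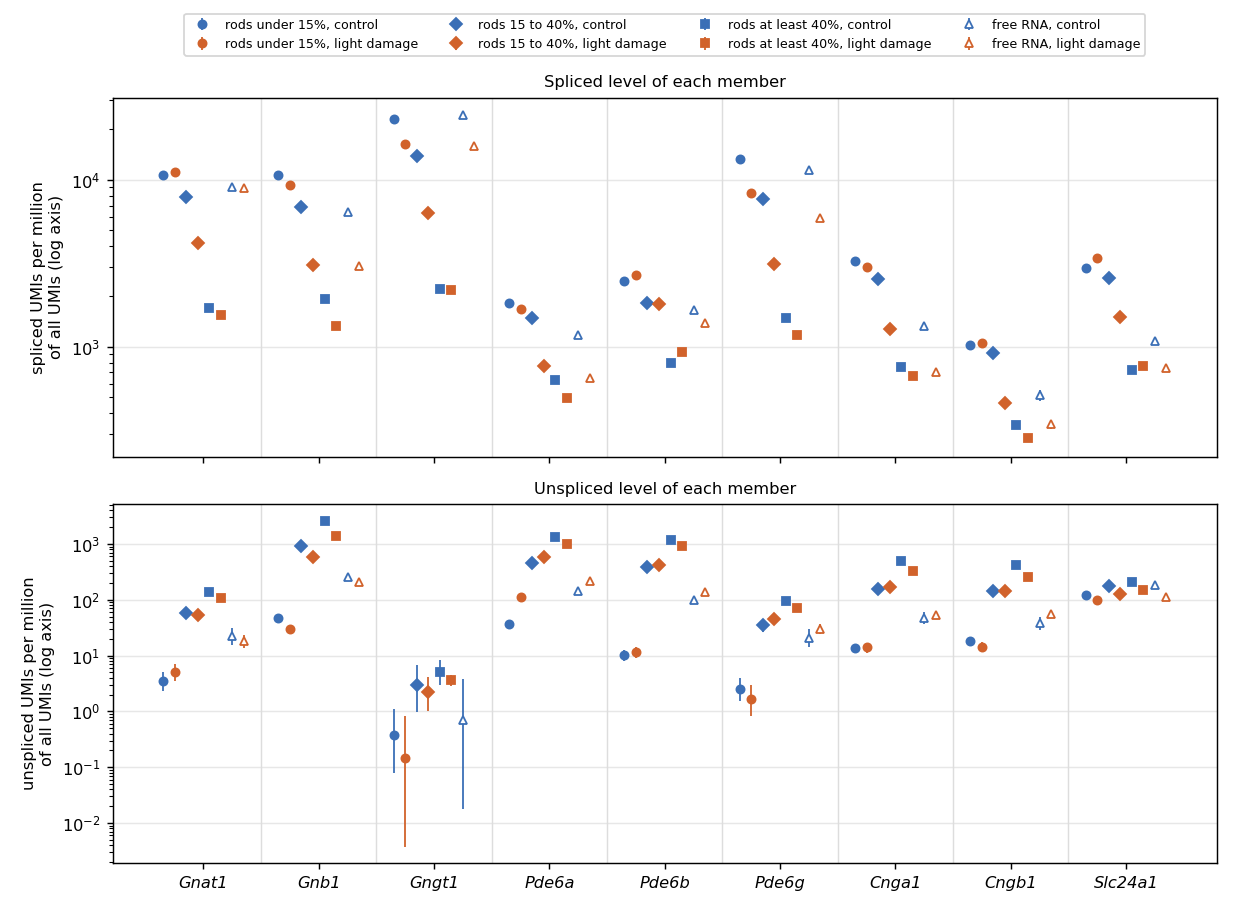
Spliced (top) and unspliced (bottom) CPM of the 9 members on log axes, in rods of 3 ranges of unspliced share and in free RNA (barcodes under 50 UMIs), control in blue and light damage in orange. Bars are exact 95% Poisson intervals, and points with 0 UMIs are left out. Unspliced Pde6a in low rods rose from 37.4 to 114 CPM, while spliced Pde6g in low rods fell from 13216 to 8273.

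Of the unspliced molecules found in low rods, those of 1 member were called higher in light damage, Pde6a. It had 295 unspliced UMIs in control and 764 in light damage, 37.4 and 114 CPM, a log2 ratio of 1.61 (1.41 to 1.81). Its spliced log2 ratio was -0.12, and the unspliced change exceeded the spliced one by 1.73 (1.54 to 1.94) on the log2 scale. Among 1083 genes with enough of both kinds of UMI in low rods, 99.4% had a lower such difference. Of the 7 members tested, 1 was called higher in unspliced against spliced UMIs, beside 9.79% of genes, and 0 lower, beside 27.2%.

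The added Pde6a molecules were spread over many rods. Unspliced Pde6a was present in 182 of 2318 control low rods (7.85%, 6.79 to 9.02%) and in 463 of 1874 light-damaged ones (24.7%, 22.8 to 26.7%), with at most 14 and 10 UMIs in 1 rod. Thinned to 1500 UMIs a droplet, the shares were 4.08% (up to 4.97%) and 13.6% (up to 15.2%). In RPE-like droplets, of a cell type not known for the rod phosphodiesterase, the thinned shares were 5.13% (2.24 to 9.85%) in control and 5.42% (3.13 to 8.66%) in light damage. The light damage share in low rods thus lay above that of RPE-like droplets, and the control share did not. Median depths of RPE-like droplets were 2648.5 and 5983 UMIs. In light damage, unspliced Pde6a stood at 358 CPM in Müller-like and 355 CPM in cone-like droplets, where 49.3% and 35.8% of UMIs were unspliced, above the 114 CPM of low rods.

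The gain in unspliced Pde6a was largest in the rods with the lowest unspliced share. In rods under 5% unspliced, its unspliced UMIs numbered 163 in control and 370 in light damage, 27.9 and 107 CPM (log2 ratio 1.94), and in rods of 5 to 10% they numbered 78 and 343, 44.2 and 115 CPM (1.38). In rods of 10 to 15% the libraries had 183 and 192 CPM, and in the ranges above that light damage lay below control except at 20 to 30% (441 and 488). Where these molecules lie within the gene cannot be read from counts per gene.

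The other 6 members that could be tested in low rods had smaller unspliced differences. Gnb1 had 374 unspliced UMIs in control and 200 in light damage, a log2 ratio of -0.67 (-0.92 to -0.41). Slc24a1 had 958 and 653, a log2 ratio of -0.32 (-0.46 to -0.17). For Gnat1 (28 and 34 UMIs), Pde6b (80 and 77), Cnga1 (106 and 94) and Cngb1 (143 and 95) the interval of the log2 ratio included 0, and Gngt1 (3 and 1) and Pde6g (20 and 11) had too few UMIs to test. Of the 7 members tested, 1 was called lower, Gnb1, beside 15.1% of 1658 genes, and 1 higher, Pde6a, beside 13.8%. With ambiguous UMIs added to the unspliced ones, the ratio of Gnb1 was 0.72, that of Pde6a 0.80, that of Cnga1 -0.77 (0.06 without them) and that of Pde6b -0.23 (0.18 without them).

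In control, Slc24a1 was the member most often found unspliced in low rods. Its unspliced UMIs were present in 23.9% of control and 23.1% of light-damaged low rods, against 0.13 to 8.46% for the other 8 members in control. After thinning to 1500 UMIs it was present in 13.2% and 11.5% of low rods, and in 7.69% and 7.80% of RPE-like droplets. As a share of unspliced UMIs it was lower in high than in low rods, with a log2 ratio of -2.88 (-3.03 to -2.74) in control and -2.74 (-2.86 to -2.61) in light damage, and 4.89% of 5748 genes in control and 3.87% of 10154 in light damage had a lower one.

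**Figure D2:**
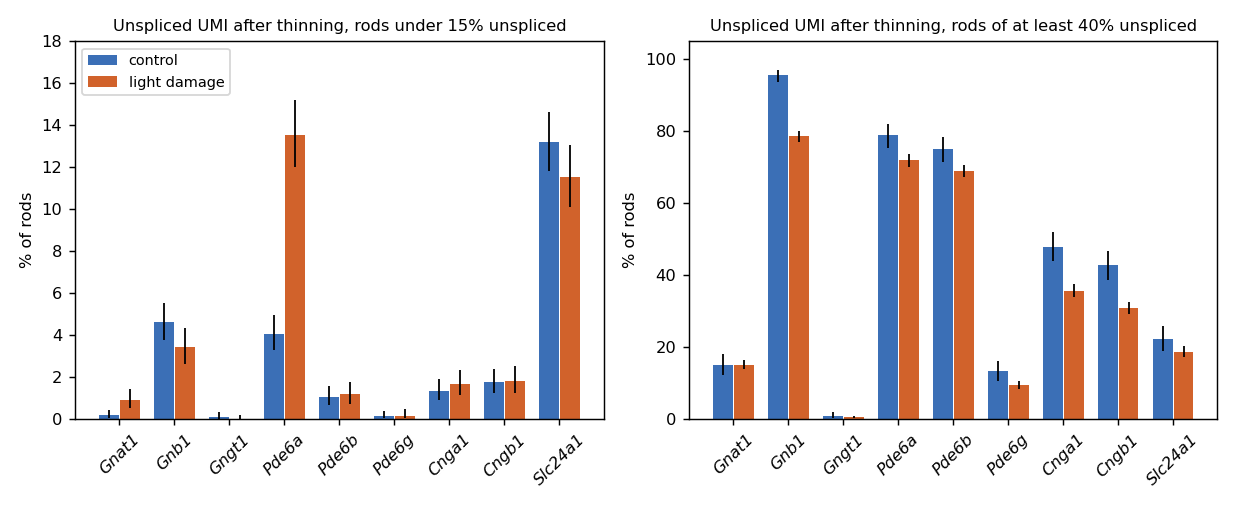
Share of rods with at least 1 unspliced UMI of each member, after thinning to 1500 UMIs, in rods under 15% (left) and at least 40% unspliced (right), with exact 95% binomial intervals. Rods below 1500 UMIs were left out, 36 low and 4 high rods of control and 0 of light damage. Pde6a stands out on the left, at 4.08% in control and 13.6% in light damage, and Gnb1 is lower on the right, at 95.6% and 78.6%.

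Ambiguous UMIs, which map within exons in a way that either kind of molecule could give, did not follow the spliced ones for Gnb1 and Cnga1. In low rods Gnb1 had 1647 ambiguous UMIs in control and 2622 in light damage, a log2 ratio of 0.91 (0.82 to 1.00), opposite to its spliced and unspliced UMIs. Cnga1 had 1623 and 766, a log2 ratio of -0.85 (-0.97 to -0.72), while its spliced log2 ratio was -0.12. In all, 1 of 9 members was called lower in ambiguous UMIs, beside 13.0% of 2247 genes, and 1 higher, beside 18.4%. In high rods Cnga1 was again lower, at -0.75 (-0.98 to -0.52), and Gnb1 was at -0.01 (-0.20 to 0.19), so that 1 of 9 was called lower, beside 12.7% of 4329 genes, and 0 higher, beside 20.1%.

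Pooled over all high rods, the spliced members stayed within 1.5-fold of control, and the order of the subunits was not that of low rods. The unspliced share was 61.3% in control and 55.5% in light-damaged high rods, so the libraries were not matched there. Gnat1 had 1707 spliced CPM in control and 1544 in light damage (log2 ratio -0.14, -0.19 to -0.10), and Gngt1 had 2222 and 2184 (-0.03, -0.06 to 0.01). Gnb1, at 1921 and 1323, had the lowest ratio of the 9, -0.54 (-0.58 to -0.50). Pde6g had 1488 and 1169 (-0.35, -0.39 to -0.30), beside -0.68 in low rods. Narrower ranges gave other values, listed here for 40 to 50, 50 to 60, 60 to 70 and at least 70% unspliced. Gngt1 was at -0.53, -0.50, -0.39 and -0.55, and Pde6g at -0.82, -0.89, -0.52 and -0.71. Gnb1 was at -1.15, -0.94, -0.45 and -0.38, and Gnat1 at -0.68, -0.56, -0.08 and -0.35. The median gene was at 0.18, 0.10, 0.01 and -0.02.

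Pde6b was the member with the highest spliced ratio over all high rods pooled. It had 795 and 930 CPM there, a log2 ratio of 0.22 (0.17 to 0.28), while its partner Pde6a had 632 and 495, a log2 ratio of -0.35 (-0.42 to -0.28). The pooled ratios of the catalytic subunits thus differed in sign. Within rods of 40 to 50, 50 to 60, 60 to 70 and at least 70% unspliced they did not. Pde6b was at -0.03, -0.05, -0.16 and -0.21 there, and Pde6a at -0.73, -0.50, -0.47 and -0.26. Cnga1 had a log2 ratio of -0.17 (-0.23 to -0.11), Cngb1 -0.27 (-0.36 to -0.18) and Slc24a1 0.09 (0.02 to 0.15). None of the 9 members was called lower, beside 5.90% of 9719 genes, and none higher, beside 28.0%. All 9 lay below the median gene, whose ratio was 0.27. Relative to the median gene 3 of the 9 were called lower, beside 12.9% of genes, and 0 higher, and the direction of Pde6b and Slc24a1 turned (-0.05 and -0.19).

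Part of the spliced signal of high rods was also present in droplets of other cells. In bipolar- and amacrine-like droplets, 20 in control and 17 in light damage with 47.9% and 52.6% of unspliced UMIs, the spliced Gnat1 UMIs per droplet were 58.6% of those of high rods in control and 27.7% in light damage. For Gngt1 the shares were 93.8% and 34.1%, for Pde6g 61.6% and 22.2%, and for Pde6b 16.5% and 9.91%. The median depths of these bipolar- and amacrine-like droplets were 3375.5 and 19428 UMIs. With these per-droplet UMIs subtracted, Gnat1 in high rods had a log2 ratio of 0.66, Gngt1 of 3.39, Pde6g of 0.67 and Cnga1 of 0.10, so the direction of these 4 turned with the way rod RNA outside the rod was treated. In low rods the same shares were 6.42 to 15.7% in control and 2.20 to 12.2% in light damage.

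The unspliced molecules of the members, which high rods hold in number, were lower in light damage throughout. Gnb1 had 2567 unspliced CPM in control and 1398 in light damage, a log2 ratio of -0.88 (-0.91 to -0.84). Cngb1 had 421 and 260 (-0.69, -0.78 to -0.61), and Cnga1 had 491 and 322 (-0.61, -0.68 to -0.53). These 3, a transducin subunit and both channel subunits, were called lower, 3 of 9 beside 19.6% of 10553 genes, and 0 members were called higher, beside 10.0%.

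The catalytic subunits of the phosphodiesterase had nearly equal unspliced ratios. Pde6a had 1338 and 998 unspliced CPM, a log2 ratio of -0.42 (-0.47 to -0.38), and Pde6b had 1204 and 904, a log2 ratio of -0.41 (-0.46 to -0.36). Pde6g stood at -0.39 (-0.56 to -0.20) from 310 and 1417 UMIs, Slc24a1 at -0.47 (-0.59 to -0.35) and Gnat1 at -0.34 (-0.49 to -0.19). The interval lay below 0 for 8 of the 9, the exception being Gngt1 with 17 and 71 UMIs. The median gene was at -0.21, and all 9 members lay below it. Relative to the median gene their ratios ran from -0.67 for Gnb1 to -0.13 for Gnat1, and 1 of 9 was called lower, beside 10.2% of genes.

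In rods thinned to 1500 UMIs the share with an unspliced Gnb1 molecule was 95.6% (93.6 to 97.1%) in control and 78.6% (77.1 to 80.2%) in light damage. For Cnga1 the shares were 48.0% (43.9 to 52.0%) and 35.7% (33.9 to 37.5%), and for Cngb1 42.7% (38.8 to 46.7%) and 30.8% (29.1 to 32.6%). For Gnat1 they were 15.1% in both libraries, with intervals of 12.3 to 18.1% and 13.8 to 16.5%.

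Unspliced against spliced, the members changed about as the median gene did. Pooled over high rods, the log2 ratio of unspliced to spliced UMIs was lower in light damage for all 9 members. The members' median was -0.42, and the median of 7442 genes was -0.46. The high rods as a whole were 61.3% unspliced in control and 55.5% in light damage. With the unspliced share held equal, the members' median was -0.14, and 0 were called lower, beside 24.2% of genes. Pde6b had the largest pooled shift, -0.64 (-0.72 to -0.56), from 151 unspliced UMIs per 100 spliced in control to 97.3 in light damage. In rods of 40 to 50% unspliced its log2 ratios were -0.45 unspliced and -0.03 spliced. At 70% and above they were -0.15 and -0.21. In the pooled rods Pde6b passed the fold limit. It was the only member called, 1 of 9 lower beside 39.5% of genes, and 0 were higher, beside 5.09%. Pde6a, with 212 and 201 unspliced UMIs per 100 spliced, had a shift of -0.07 (-0.16 to 0.01), and Pde6g of -0.04 (-0.22 to 0.15). For 3 of the 9 members the shift was below that of the median gene, and relative to it the members' median was 0.05 and 0 were called lower, beside 13.1% of genes.

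**Figure D3:**
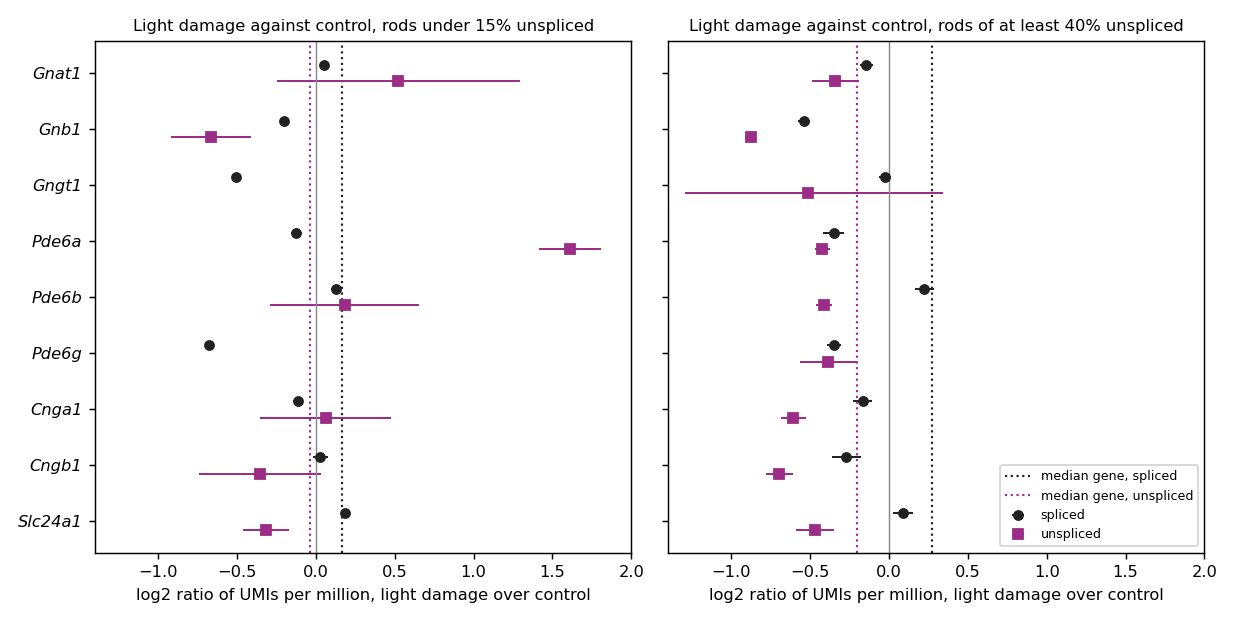
Log2 ratio of light damage over control for each member, spliced (black circles) and unspliced (purple squares), in rods under 15% (left) and at least 40% unspliced (right). Bars are exact 95% intervals of the counts, dotted lines the median gene of each kind, and members under 50 UMIs in a kind are not drawn. On the left Pde6a unspliced is alone at 1.61, and on the right every unspliced square lies left of 0, from -0.88 for Gnb1 to -0.34 for Gnat1.

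In both libraries all 9 spliced members were lower in rods of 70% unspliced and above than in rods under 5%. In CPM, spliced Gnat1 was 10665 in control rods under 5% unspliced, 8333 at 20 to 30%, 5148 at 30 to 40% and 627 at 70% and above. In light damage the values were 10994, 7524, 2825 and 493. For Gnat1 the libraries were thus farthest apart at 30 to 40%.

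At 30 to 40% unspliced the log2 ratio was -1.28 for spliced Gnb1, -1.27 for Pde6g, -1.08 for Gngt1 and -1.02 for Cnga1. It lay between -0.89 and -0.74 for Gnat1, Pde6a, Cngb1 and Slc24a1. Pde6b alone was at 0.11, with 1509 and 1633 CPM. The median gene in that range was at 0.37. These rods numbered 114 in control and 330 in light damage, with median depths of 2101 and 8430 UMIs, and the part of that difference in depth was not tested.

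Over all rods of 15 to 40% unspliced, 8 of 9 members were called lower in spliced UMIs, beside 14.3% of 7432 genes, and 0 higher, beside 32.4%. The exception was Pde6b at -0.01 (-0.07 to 0.05). The unspliced share was 25.4% in the control and 33.0% in the light-damaged rods of this range, so the libraries were not matched there. Red blood cell markers stood at 4.75 CPM in control and 1619 in light damage in these rods, rod markers at 69673 and 39389 and cone markers at 153 and 22.9, and their part was not tested. Unspliced Pde6a was at 0.34 (0.22 to 0.45) and Gnb1 at -0.63 (-0.73 to -0.54), and 1 of 8 members tested was called lower, beside 7.39% of 4751 genes, and 0 higher, beside 35.1%. Unspliced against spliced, 5 of 8 members were called higher, beside 24.8% of 3604 genes, and 0 lower, beside 19.1%. The largest such shifts were those of Pde6g, 1.65 (1.22 to 2.10), and Pde6a, 1.29 (1.15 to 1.43). In ambiguous UMIs 6 of 9 were called lower, beside 14.2%, and 1 higher, beside 31.9%, which was Pde6g with 14 and 59 UMIs.

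**Figure D4:**
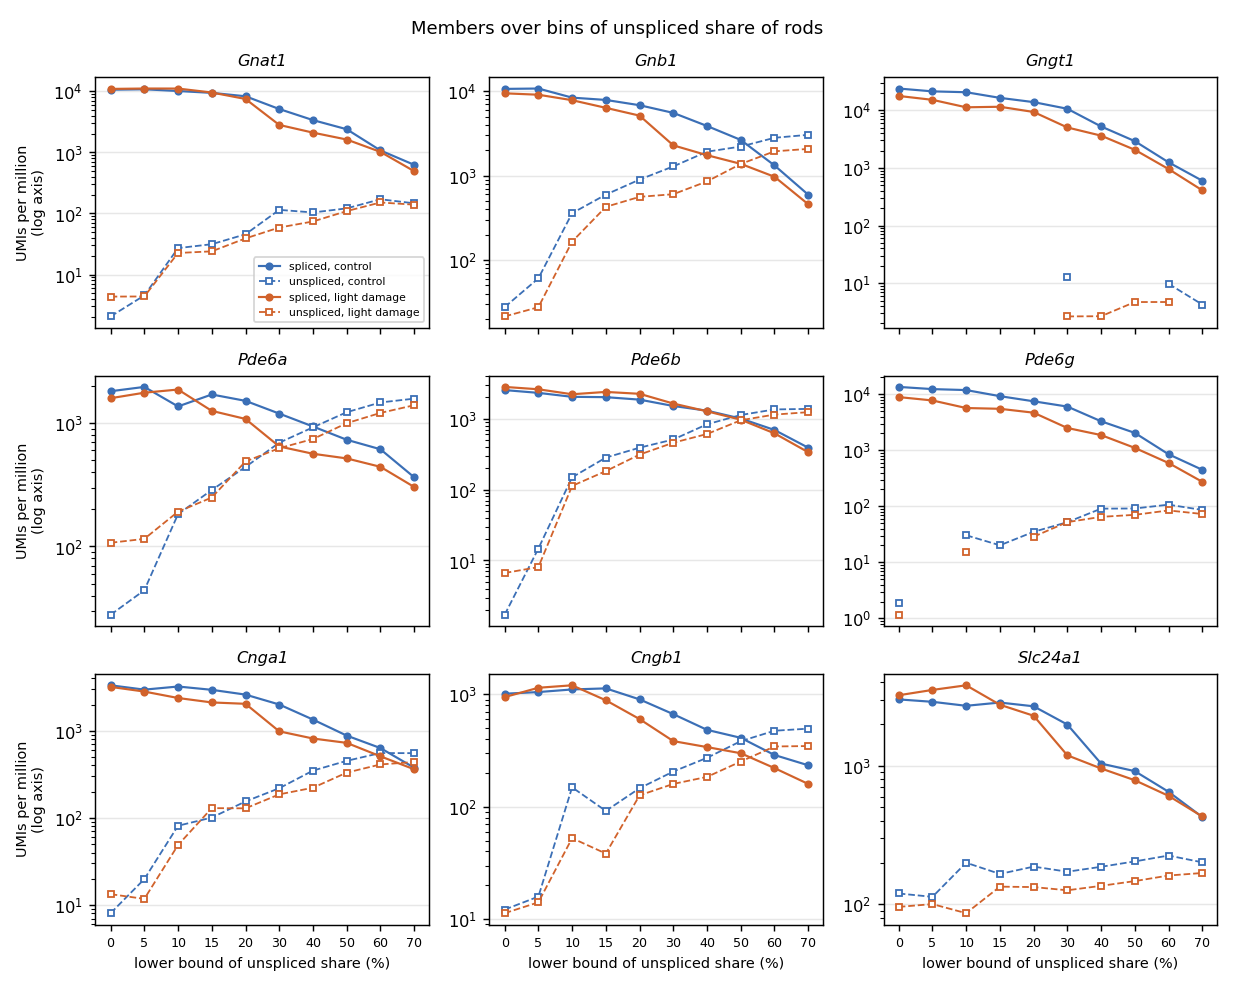
Spliced (filled, solid) and unspliced (open, dashed) CPM of each member against the lower bound of the unspliced share of rods, control in blue and light damage in orange, with the level on a log axis. Unspliced points of 3 UMIs or fewer are left out. Spliced CPM falls by construction as the unspliced share rises. Spliced Gnat1 goes from 10665 to 627 in control and from 10994 to 493 in light damage, and unspliced Pde6a at the lowest share stands at 27.9 and 107.

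Within a library, the members were unevenly divided between low and high rods. As a share of spliced UMIs, Gngt1 was lower in high rods by a log2 ratio of -1.84 in control and -1.62 in light damage, Pde6g by -1.61 and -1.54, and Gnat1 by -1.11 and -1.56. Gnb1 was lower in high rods by -0.93 in control and -1.53 (-1.55 to -1.50) in light damage. Pde6a (0.01 and -0.48), Pde6b (-0.09 and -0.25) and Cngb1 (-0.05 and -0.61) were much nearer to level. The median gene was higher in high rods, at 0.67 and 0.76. The transducin subunits and Pde6g were thus the members most concentrated in low rods, and the catalytic and modulatory subunits the least. Gnb1 was less so than Gnat1 in control, and close to Gnat1 and Pde6g in light damage.

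The unspliced members did not share 1 pattern in this comparison. As a share of unspliced UMIs, Pde6b was higher in high rods by 3.25 (2.93 to 3.59) in control and 2.95 (2.63 to 3.29) in light damage, and Gnb1 by 2.11 and 2.20, above the median gene at 1.52 and 1.45. Pde6a was higher by 1.52 (1.35 to 1.69) in control, like the median gene, and lower, at -0.22 (-0.32 to -0.11) in light damage. Cnga1 (1.55 and 1.18) and Gnat1 (1.65 and 1.09) kept near the median gene in both libraries.

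Free RNA, read in barcodes under 50 UMIs, held the members at high levels. There were 479929 such barcodes with 1431689 UMIs in control and 877154 with 2954346 UMIs in light damage. Spliced Gnat1 stood at 9025 and 8917 CPM of free RNA, 0.845 and 0.805 of its level in low rods. Spliced Gngt1 stood at 24324 and 15910, 1.05 and 0.973 of its level in low rods. Cnga1 stood at 1326 and 702, 0.409 and 0.235 of its level, and Slc24a1 at 1074 and 748, 0.361 and 0.221. Transcripts of Gnat1 and Gngt1 were thus near their low-rod level in free RNA and those of the channel subunit and the exchanger well below it.

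The spliced members were also lower in the free RNA of light damage than in that of control, except Gnat1. The log2 ratio was -1.08 (-1.12 to -1.04) for Gnb1, -0.96 (-0.99 to -0.92) for Pde6g, -0.92 (-1.01 to -0.83) for Cnga1 and -0.86 (-0.96 to -0.77) for Pde6a. It was -0.61 for Gngt1, -0.57 for Cngb1, -0.52 for Slc24a1, -0.26 for Pde6b and -0.02 (-0.05 to 0.01) for Gnat1. Of the 9 members, 5 were called lower, beside 8.68% of 6904 genes, and 0 higher, beside 27.8%. In ambiguous UMIs 6 were called lower, beside 22.5% of 1038 genes, and 0 higher, beside 22.4%. RPE markers stood at 2797 CPM in control and 10710 in light damage free RNA and rod markers at 65479 and 51614, and their part in these ratios was not tested.

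Unspliced free RNA went the other way for part of the members. Unspliced Pde6a was at 145 and 217 CPM (0.58, 0.35 to 0.81), Cngb1 at 37.7 and 56.9 (0.59, 0.14 to 1.06) and Slc24a1 at 185 and 112 (-0.72, -0.96 to -0.49). The median gene was at 0.35. Of 8 members tested, 1 was called lower, Slc24a1, beside 9.58% of 2264 genes, and 1 higher, Cngb1, beside 35.2%. Unspliced against spliced, 6 of 8 were called higher, beside 38.6% of 1431 genes, and 0 lower, beside 11.4%.

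Judged by RPE markers, free RNA made up 1.04% of the UMIs of control low rods and 0.60% of those of light-damaged low rods, and 1.23% and 0.43% of those of high rods. Barcodes of 50 to 200 UMIs gave 3.32% and 3.29% for low rods and 3.93% and 2.37% for high rods. RPE markers stood at 875 and 1949 CPM in those barcodes, beside 2797 and 10710 under 50 UMIs, so the share depends on the barcodes used. Rod markers stood at 6446 and 3686 CPM in RPE-like and 6969 and 1492 in bipolar- and amacrine-like droplets, beside 65479 and 51614 in free RNA. The part of rod RNA from outside a rod was not estimated apart. With either RPE-based share subtracted, the log2 ratio of unspliced Pde6a in low rods was above 1.61, and larger shares were not tried.

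Across the other droplets, spliced members were present in each of the 5 named classes. Cone-like droplets, 156 in control and 91 in light damage, held 35.8 and 83.7 spliced Gnat1 UMIs a droplet beside 36.4 and 39.6 in low rods, at median depths of 2814 and 17040 UMIs, and rod markers stood at 59175 and 29792 CPM there. The cone markers of these droplets stood at 7935 and 7844 CPM. Thinned to 1500 UMIs, Gnat1 stood at 12.1 and 4.46 UMIs in cone-like droplets and at 16.4 and 16.8 in low rods. Rod and cone markers were thus both present in cone-like droplets, and the members' UMIs in them cannot be assigned to cones.

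Slc24a1 was found in RPE-like droplets more often than Cnga1. In 158 control and 295 light-damaged RPE-like droplets it stood at 5.01 and 7.40 spliced UMIs a droplet, while Cnga1, of similar level in low rods (11.0 and 10.7 against 10.1 and 12.1 for Slc24a1), stood at 0.88 and 1.01. After thinning to 1500 UMIs, Slc24a1 was found in 68.6% (60.7 to 75.8%) and 62.7% (56.9 to 68.2%) of RPE-like droplets, and Cnga1 in 20.5% (14.5 to 27.7%) and 11.2% (7.83 to 15.4%). In bipolar- and amacrine-like droplets Slc24a1 was at 0.65 and 1.47 UMIs a droplet. Microglia-like droplets, 10 in control, held Gnat1 at 14.7 UMIs a droplet, above the 9.13 of high rods, and the 43 of light damage held 4.65.

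**Figure D5:**
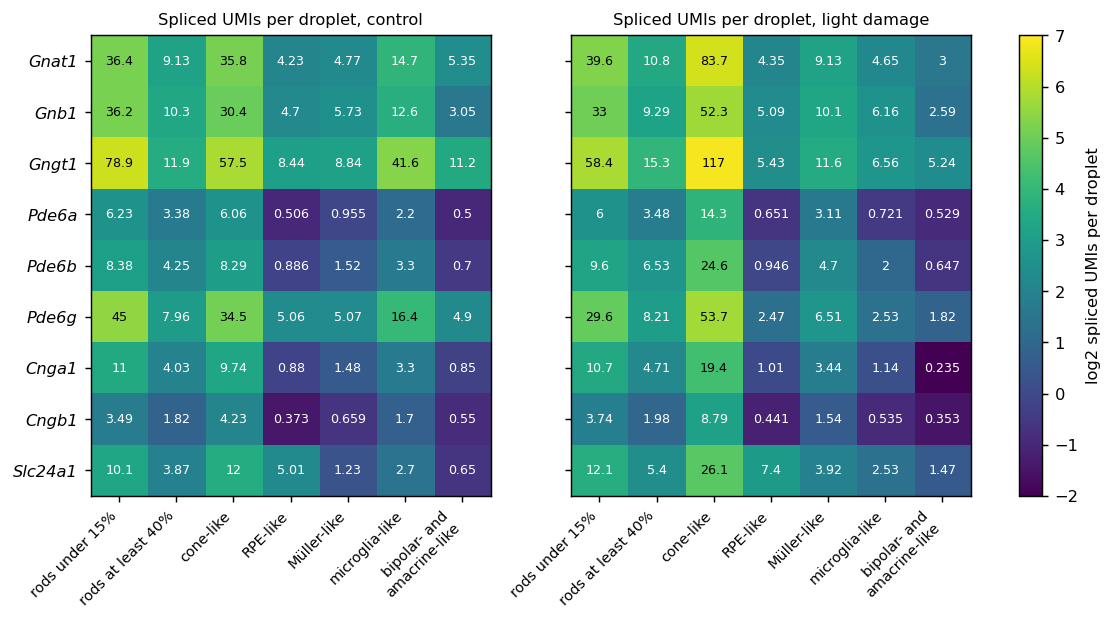
Mean spliced UMIs per droplet of each member (rows) in low and high rods and in 5 other classes of droplet (columns), control left and light damage right. Colour is on a log2 scale and each cell prints the mean. Slc24a1 in RPE-like droplets (5.01 and 7.40) stands above Cnga1 (0.88 and 1.01), and cone-like droplets carry every member above the level of high rods.

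The genes that end the light response and restore the rod were compared as a list of 15. In spliced UMIs of low rods none of 15 was called lower, beside 4.67% of 8739 genes, and 1 was higher, beside 14.6%. The 1 was Rdh8, a retinol dehydrogenase of the outer segment (62 and 82 UMIs, log2 ratio 0.64, 0.15 to 1.14). Recoverin (Rcvrn), a calcium sensor of the photoreceptor, had the lowest ratio, -0.52 (-0.54 to -0.50), from 6820 to 4771 CPM. The list's median was 0.01, beside -0.12 for the 9 members and 0.16 for all genes.

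In high rods the unspliced UMIs of 14 testable shutoff and recovery genes were all below control, with a median of -0.13 beside -0.47 for the members and -0.21 for all genes, and 2 were called lower, beside 19.6% of genes. Guca1a, which activates guanylate cyclase when calcium falls, was the lowest at -0.68 (-0.87 to -0.50). Unspliced Pdc, phosducin, was called higher in low rods, at 0.59 (0.43 to 0.74). It was the 1 called higher of 10 tested, beside 13.8% of 1658 genes, and 0 were lower, beside 15.1%.

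Genes of outer segment structure, 10 in number, had a spliced median of 0.12 in low rods and 0.03 in high rods. Impg2, of the matrix between photoreceptors, was higher in both, at 0.82 (0.76 to 0.87) and 0.94 (0.83 to 1.06), and Fscn2, an actin-bundling protein, was lower in both, at -0.62 (-0.69 to -0.54) and -0.72 (-0.89 to -0.54). Unspliced Rp1, of the axoneme, was at 1.17 (1.11 to 1.23) in high rods, opposite to every member. Of the list, 1 gene was called lower and 2 higher in spliced UMIs of low rods, beside 4.67% and 14.6% of all genes, and 1 and 3 in those of high rods, beside 5.90% and 28.0%.

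Among 10 photoreceptor transcription factors, Nr2e3, which holds the rod fate, was lower in spliced UMIs in low rods (-0.69, -0.73 to -0.65) and high rods (-1.20, -1.27 to -1.13), and in unspliced UMIs of high rods (-1.63, -1.82 to -1.43). Samd7, a rod silencing factor, was higher at 1.58 (1.47 to 1.69) in spliced UMIs of low rods, and Neurod1 at 1.66 (1.58 to 1.74) in those of high rods. In spliced UMIs of low rods 1 of 10 was called lower and 3 higher, beside 4.67% and 14.6% of all genes, and in those of high rods 1 and 4, beside 5.90% and 28.0%. The members' spliced ratios ran from -0.68 to 0.19 in low rods.

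Of 8 cone counterparts of the members, only Gnb3 had enough spliced UMIs in low rods, and it was higher in light damage in every comparison. Gnb3, the β subunit of cone transducin, went from 282 to 494 spliced CPM in low rods (0.81, 0.73 to 0.89) and from 147 to 431 in high rods (1.55, 1.42 to 1.69). Its unspliced UMIs in high rods went from 81.8 to 273 CPM (1.74, 1.56 to 1.92). Gnb1, its rod counterpart, was at -0.88 there. In spliced UMIs of high rods 2 of the 8 were tested, 1 called higher, beside 28.0% of genes, and 0 lower, beside 5.90%. Gngt2 was the lower of these, at -0.55 (-1.52 to 0.55). In unspliced UMIs 4 were tested, 2 called higher, beside 10.0% of genes. There 1 was called lower, Slc24a2 at -0.69 (-1.48 to 0.18), beside 19.6%. In low rods Gnb3 was called higher in both kinds, beside 14.6% of genes spliced and 13.8% unspliced. The summed cone markers were 11.5 and 22.4 CPM in low rods and 13.7 and 15.1 in high rods, and their part in the level of Gnb3 was not tested.

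In the contrast list of 8 rod synapse and housekeeping genes, none was called in spliced UMIs of low rods, beside 4.67% of genes lower and 14.6% higher. In high rods 0 were lower, beside 5.90%, and 1 was higher, beside 28.0%, Ctbp2 of the synaptic ribbon (0.82, 0.66 to 0.98). Unc119, a carrier of the transducin α subunit, was the lowest of the list in low rods, at -0.40 (-0.43 to -0.38) spliced and -0.79 (-0.85 to -0.72) unspliced.

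By distance over the 4 log2 ratios (spliced and unspliced, low and high rods) to the median of the 7 members testable in all of them, the nearest 5 of 1069 genes included Rims2 and Ppfia2. Rims2, of the presynaptic active zone, had ratios of 0.05 and -0.19 spliced and 0.07 and -0.49 unspliced in low and high rods. The members' median was 0.03, -0.17, 0.06 and -0.47 in the same order.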

How the data were processed

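Retina of 2 mouse groups was dissociated, loaded on the 10x Genomics 3′ v3.1 platform and sequenced, 1 library per condition. The authors mapped reads with salmon 1.10.1 and alevin-fry 0.8.1 to an mm10 index of spliced transcripts and introns, kept reads on the sense strand and deposited UMI counts per barcode for 32285 genes in 3 blocks (spliced, unspliced, ambiguous), without normalization or droplet filters. Of the gene IDs, 32235 were named from GENCODE vM21. Droplets above the inflection of the barcode rank curve (1464 and 1614 UMIs), under 10% mitochondrial UMIs and not among the doublet scores left out were clustered (scanpy 1.11.5, leidenalg 0.10.2, resolution 1, 2000 variable genes without the 9 members) and named from fixed markers by a scoring rule set after the scores were seen. Doublets were scored by similarity to simulated pairs, and 114 and 276 droplets were left out. The study's own filters by an empty-droplet test and an estimate of free RNA were not applied. UMIs of a kind were divided by all UMIs of the group. Ratios have exact conditional binomial intervals, levels exact Poisson intervals and shares exact binomial (Clopper-Pearson) intervals. UMIs counted by alevin-fry leave out PCR copies. With 1 library per condition there was no test, and genes were called at a 1.5-fold difference with at least 50 UMIs. Ratios and intervals were tested on simulated data. The members, lists and limits were chosen with earlier results of these data known. For lists, the genes of largest rise and fall were named, and the 5 genes nearest to the members' median. Some genes that this rule named are not reported here. Alternatives changed droplet filters, clustering, limits, scaling, kind of UMI, free RNA, fold and UMI minimum.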

Additional observations from a re-analysis of the deposited data

Results flagged for a closer look

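For 2 members the log2 ratio of light damage over control had intervals on opposite sides of 0 in low and high rods. Pde6a unspliced UMIs had a ratio of 1.61 (1.41 to 1.81) in low rods and -0.42 (-0.47 to -0.38) in high rods. Gnat1 spliced UMIs had a ratio of 0.05 (0.04 to 0.07) in low rods and -0.14 (-0.19 to -0.10) in high rods. With 1 library per condition, the difference between low and high rods was not tested in either case, and the Gnat1 ratios both lie within 1.5-fold of control.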

How the results depend on the processing

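The log2 ratios of members gave 958 values over 17 alternatives set in the plan and 3 added after seeing the data, of which 769 stayed within the interval of the reported value and 188 did not. Alternatives that changed only the fold limit or the UMI minimum of a gene could not move a ratio. Their values are among the 769 by construction. Among ratios past 1.5-fold, the 1 that changed sign was Gnb1 unspliced in low rods, at 0.72 with ambiguous UMIs added. Ratios within 1.5-fold changed sign as well, such as spliced Gnat1 and Pde6g in high rods, at 0.66 and 0.67 with bipolar-like droplets subtracted, and Pde6b and Slc24a1 there, at -0.05 and -0.19 when centred on the median gene. Pde6a unspliced in low rods ran from 0.80 (ambiguous UMIs added) to 1.81 (limits of 10% and 50%). It was at least 1.5-fold in all 19, which include those that could not move it. The unspliced ratios of the 9 members in high rods were below 0 under every alternative that gave a value.

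Counts of members called, reported as 1 lower (spliced, low rods), 1 lower and 1 higher (unspliced, low), 0 lower and 1 higher (unspliced against spliced, low), 0 (spliced, high), 3 lower (unspliced, high) and 1 lower (unspliced against spliced, high), moved as follows. Centring on the median gene gave 2 lower (spliced, low), 2 higher (unspliced against spliced, low), 3 lower (spliced, high), 1 lower (unspliced, high) and 0 (unspliced against spliced, high). Scaling within each kind of UMI gave 2 lower (unspliced against spliced, low), 3 lower (spliced, high), 1 lower (unspliced, high) and 0 (unspliced against spliced, high). Holding the unspliced share equal gave 1 lower (unspliced against spliced, low), beside 29.5% of genes. It gave 1 lower (spliced, high), beside 5.34%, and 0 lower (unspliced against spliced, high), beside 24.2%. Limits of 10% and 50% gave 0 lower, beside 13.4% of genes, and 2 higher (unspliced, low). They gave 0 lower (unspliced against spliced, high), beside 29.6%. Ambiguous UMIs added gave 2 higher (unspliced, low), and 1 lower, beside 14.0% of genes, and 2 higher (unspliced against spliced, low). They gave 0 lower (unspliced against spliced, high), beside 29.0%. A smaller fold limit gave 2 lower (spliced, low), 2 lower and 2 higher (unspliced, low), 3 lower and 2 higher (unspliced against spliced, low), 3 lower (spliced, high), 9 lower (unspliced, high) and 6 lower (unspliced against spliced, high), and a fold of 2 gave 0 lower in spliced and unspliced low rods, in unspliced high rods and in unspliced against spliced high rods. A minimum of 1000 UMIs a droplet gave 1 lower (spliced, high), and a minimum of 10 UMIs a gene gave 2 lower (unspliced, low). Free RNA subtracted gave 2 lower (unspliced against spliced, high), beside 41.6% of genes. With barcodes of 50 to 200 UMIs it gave 3 lower there, beside 44.2%, and 1 lower in low rods, beside 34.8%. Subtracting the spliced UMIs of bipolar-like droplets gave 3 higher (spliced, high). That subtraction was made for the 9 members alone, so no share of all genes stands beside it. In the order of the reported counts, the shares of all genes called lower were 13.3%, 29.4%, 43.8%, 12.5%, 39.4% and 61.1% at the smaller fold, 1.74%, 4.83%, 10.2%, 1.61%, 5.01% and 15.4% at a fold of 2, 8.78%, 13.4%, 17.8%, 12.9%, 10.2% and 13.1% when centred, and 4.47%, 23.1%, 37.5%, 12%, 12.5% and 16.4% within each kind of UMI. Shares of all genes called higher were not computed for the alternatives. The cause of each shift was not tested.

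No paired analysis was possible because each group has 1 library and no test was made. Free RNA, rod RNA in other droplets and the depth of high rods limit the spliced levels there.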
